A study of Mus musculus with 72 samples.

Results

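The comparison is between livers of C57BL/6J female mice on a Low Protein diet and livers of C57BL/6J females on a Medium Protein diet. Its members are the 12 libraries of these groups, 6 per diet, out of 72 in the series, and 19362 expressed genes of the 51912 in the deposited table were tested. C57BL/6J is an inbred strain with no engineered allele in the labels. The females went onto their diets at 10 weeks of age, stayed on them for 13 weeks at about 22 °C, and died aged 23 weeks, having fasted overnight for 16 h, with 1 library of polyadenylated RNA from whole liver per animal. The series set these diets against each other to learn how they act on metabolism in each sex and strain. The protein content of each diet is not given in the labels. Where shown as context, C57BL/6J females on the Control diet, C57BL/6J males and DBA/2J females (6 animals per diet in each case) had the same ages, diet times and fast. Labels give each animal its own code, so the p-values cover the spread between animals within this cohort.

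When the supply of amino acids falls, a kinase that senses uncharged transfer RNA slows protein synthesis and raises ATF4, a transcription factor that switches on genes for making and importing amino acids, among them Asns. Liver is also the main site where surplus amino acids are broken down and turned into urea, and where carbohydrate is made into fat. Many liver genes differ between the sexes because growth hormone is secreted in another rhythm in females than in males, and cytochrome P450 genes of the Cyp3a and Cyp4a families are classic examples. These pathways gave the gene lists described here.

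Total counts ran from 27.8 to 35.5 M in Low Protein libraries and from 29.5 to 34.0 M in Medium Protein libraries. Xist stood at 1227 to 1638 CPM (the usual per-library scaling of counts, after TMM normalization, and not per gene length) in the 12 libraries, and the Y-linked Ddx3y and Eif2s3y were at 0 in each. Low Protein library 1 stood apart: its median rank correlation with its own group was 0.970, against 0.980 to 0.983 for the other 5 and 0.982 to 0.986 for Medium Protein. Marker sums are given as CPM of the library totals, without TMM. Summed macrophage markers (21 genes) were at most 753 CPM in Low Protein libraries 2 to 6 and 387 to 633 CPM on Medium Protein. In Low Protein library 1 they reached 1626 CPM. Its neutrophil marker sum was 21.8 CPM, against at most 5.79 CPM in the other Low Protein and 2.58 to 4.98 CPM in the Medium Protein libraries, and its hepatocyte marker sum of 84287 CPM was the lowest of the 12. Low Protein library 6 had counts in 29215 genes and 1.67% ribosomal-like RNA. Fewer cells of a type and less RNA per cell cannot be told apart in whole liver. The position-like codes of the labels run in group order, so position and diet cannot be told apart.

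RNA of the asparagine synthetase gene Asns, the uncoupling protein gene Ucp2 and the elongase gene Elovl3 was higher on Low than on Medium Protein. RNA of female-biased Cyp3a genes and of the desaturase gene Scd1 was lower. These results come from the fit of all 72 libraries. In all, 376 of 19362 genes (1.94%) passed an edgeR quasi-likelihood test at a Benjamini-Hochberg adjusted p below 0.05 (a gene is called here when it does), 179 of them higher (0.924%) and 197 lower (1.02%) on Low Protein. Most changes were small. The median size of a called change was 0.56 on the log2 scale, 167 calls lay under 0.5, and 86 were at least 2-fold. Protein-coding genes made up 340 of the calls. Of the 376, 130 passed with each of the 12 libraries left out in turn (66 higher, 64 lower). The count depended on which libraries were fitted: against all 72 here, a fit of the 12 libraries alone called 101 genes, 86 of them among the 376, and a fit of the 18 C57BL/6J female libraries called 54. Of the 67 named called genes, 30 passed in the fit of the 12 and 17 in that of the 18. Cfap54, Ucp2, Cd63, Trpm4 and Elovl3 passed in both. Asns and Cyp3a41b passed in the fit of the 12 and not in that of the 18. Cyp3a16, Cyp3a41a and Scd1 passed in neither. Without Medium Protein library 2 or 5, or Low Protein library 4 or 6, the count was 201, 214, 245 and 245, and without Low Protein library 1 it was 295, with 227 of the 376 still passing. With library totals in place of TMM, 67.6% of calls were higher on Low Protein, against 47.6% here.

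**Figure D1:**
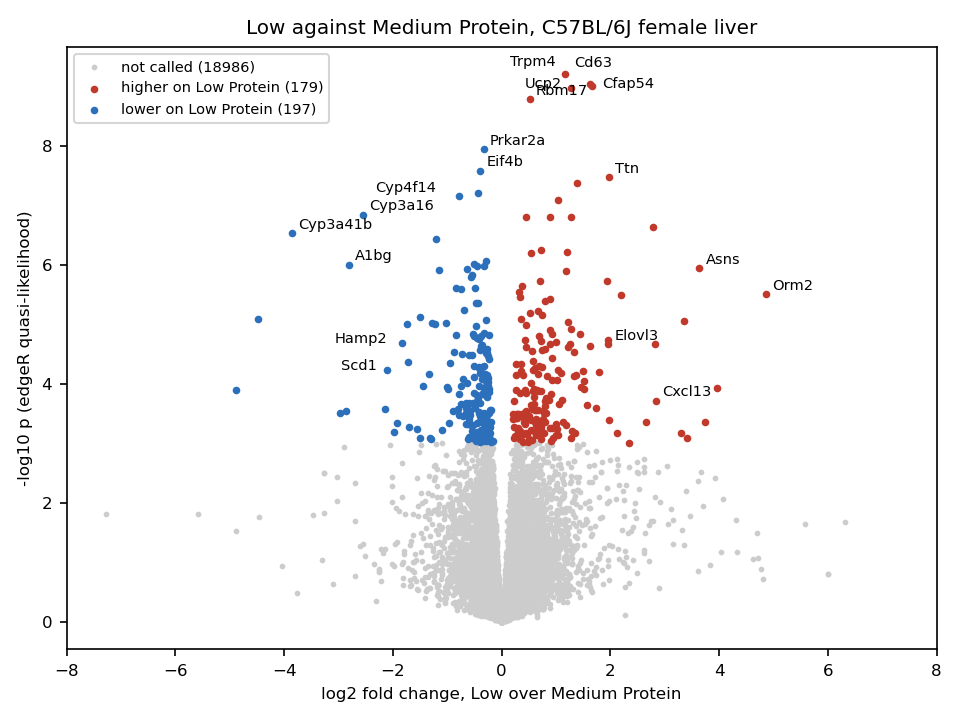
Each point is a gene in C57BL/6J female liver, with the log2 fold change of Low over Medium Protein on the x axis and −log10 of the unadjusted edgeR p on the y axis. Red points are the 179 genes called higher and blue points the 197 called lower on Low Protein; Trpm4, Cd63, Cfap54 and Ucp2 lie at the top and Orm2 is the highest fold change among the labelled genes.

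Asns (ENSMUSG00000029752, chr6:7675169-7693254, GRCm38), which makes asparagine from aspartate, had the highest fold change after Orm2 (below) among called genes whose log2 CPM averaged 0 or more. It stood at 1.32, 2.62 and 8.36 CPM (lowest, median and highest of 6) in Low Protein livers, against 0.141, 0.235 and 0.532 CPM in Medium Protein livers. The groups did not overlap, and library 1 was the highest of the Low Protein group. The log2 fold change was 3.64 ± 0.68 (SE, adjusted p = 0.00077), and it was 3.20 without that library (0.00555). Asns passed in the fit of the 12 libraries (0.00425) and not in that of the 18 C57BL/6J female libraries (0.0984). In the 250 bases before its RefSeq start site a script found 1 match to the ATF4 response element written as TGATGNAA, 23 bases before the start. The sequence is shown because this element is the textbook link between amino acid supply and Asns. Capitals mark the match, and the strand is that of the gene (chr6:7693210-7693459, minus, GRCm38.p6). The GENCODE gene begins a little further upstream, inside this window, and the match lies past that start.
Asns: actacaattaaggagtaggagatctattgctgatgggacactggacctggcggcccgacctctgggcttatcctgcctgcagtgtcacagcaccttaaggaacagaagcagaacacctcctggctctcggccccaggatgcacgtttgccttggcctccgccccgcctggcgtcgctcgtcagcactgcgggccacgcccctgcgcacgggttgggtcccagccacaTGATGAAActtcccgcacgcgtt
A match is a description only, and such matches (both strands searched) were in 3.45% of 32851 promoters of this length, in 3 of 174 promoters of genes called higher and in 4 of 177 of genes called lower.

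Genes of the amino acid response other than Asns mostly kept within the spread. Of 33 tested ATF4 targets 2 were called, both higher (Asns and Aldh1l2, against 0.924% of all genes), and the list's median log2 fold change was 0.21 (0.13 without Low Protein library 1), beside 0.01 over all genes. Aldh1l2, a mitochondrial enzyme of folate metabolism, stood at 0.520 to 1.68 CPM on Low Protein and 0.177 to 0.511 CPM on Medium Protein, with no overlap (1.78 ± 0.42, adjusted p = 0.00995). Mat2a, which makes S-adenosylmethionine, rose by 0.36 ± 0.08 (0.00941), to 83.7 ± 3.89 CPM on Low Protein, against 65.1 ± 7.26 CPM on Medium Protein (mean ± SD, n = 6 each). Shmt1, the cytosolic serine hydroxymethyltransferase, fell to 115 ± 11.7 CPM on Low Protein, against 152 ± 16.1 CPM on Medium Protein (-0.41 ± 0.09, 0.00866). None of the 22 aminoacyl-tRNA synthetase genes and none of the 9 urea cycle genes passed. At the 1.94% of all genes that did, lists this short would hold few calls or none. Their medians were -0.01 and -0.07 (0.01 and -0.0081 without Low Protein library 1). Fgf21, a liver hormone known to respond to protein restriction, stood at 6.87, 13.5 and 17.2 CPM on Low Protein and 3.77, 7.54 and 10.2 CPM on Medium Protein. The groups overlapped and the difference of 0.77 ± 0.40 did not pass (adjusted p = 0.375).

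Of 57 tested genes of amino acid catabolism 5 were called, each lower on Low Protein (1.02% of all genes were called lower), and the median was -0.11, and -0.06 without Low Protein library 1. Among these were Acadsb of isoleucine breakdown (-0.37 ± 0.08, adjusted p = 0.00416), Aldh7a1 of lysine breakdown (-0.28 ± 0.08, 0.0401), the glutaminase Gls2 (-0.55 ± 0.16, 0.0449) and Haao of tryptophan breakdown (-0.39 ± 0.11, 0.0487). Acadsb stood at 43.7 to 66.0 CPM on Low Protein and 64.9 to 80.0 CPM on Medium Protein, so the groups met at their edges, and it passed with any 1 library left out. The calls of the other 3 were lost without any 1 of 8 or 9 of the 12 libraries, at an adjusted p of up to 0.157 for Aldh7a1, 0.134 for Gls2 and 0.166 for Haao, and without Low Protein library 1 only Acadsb of this list was called.

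Among called genes of that level, from which the 15 highest and 15 lowest were named, the lowest fold change was that of Cyp3a41b, one of 3 called Cyp3a genes that are more highly expressed in female than in male mouse liver. Cyp3a41b (ENSMUSG00000075552, chr5:145558664-145584730) stood at 0.530, 7.55 and 17.9 CPM on Low Protein, against 24.7, 63.2 and 376 CPM on Medium Protein. Its neighbour Cyp3a16 (ENSMUSG00000038656, chr5:145436309-145469723) stood at 1.93, 13.1 and 21.9 CPM on Low Protein, against 24.0, 50.1 and 186 CPM on Medium Protein. In both genes the groups did not overlap, Low Protein libraries 4 and 6 were the lowest and Medium Protein library 4 was the highest. The changes were -3.86 ± 0.65 (adjusted p = 0.000313) for Cyp3a41b and -2.55 ± 0.43 (0.000187) for Cyp3a16. Cyp3a41a (chr5:145694049-145720136) stood at 59.0, 577 and 942 CPM on Low Protein and 877, 1439 and 2390 CPM on Medium Protein, overlapping through Low Protein library 5 (-1.44 ± 0.35, 0.0137). The call of Cyp3a41a was lost without Medium Protein library 4 (-1.25, 0.0534), and in a fit of the 12 libraries alone Cyp3a41a (0.149) and Cyp3a16 (0.0649) did not pass while Cyp3a41b did (0.0422). None of the 3 passed in the fit of the 18 C57BL/6J female libraries (0.237, 0.12 and 0.0793 in the same order), and without Medium Protein library 4 the change of Cyp3a41b was -2.97 (0.00414).

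Cyp3a11, a main drug-metabolising enzyme of the same cluster (chr5:145854426-145879964, named after its values were seen), went the other way. It stood at 1448, 2343 and 4002 CPM on Low Protein, against 1056, 1384 and 1723 CPM on Medium Protein, and the groups overlapped. The change was 0.91 ± 0.23 (adjusted p = 0.0157), lost without Low Protein library 2 (0.75, 0.0731) or Medium Protein library 4 (0.84, 0.0519). Because these neighbours moved in opposite directions, 3 of their promoters are shown, each as the 250 bases before the RefSeq start on the gene's own strand (GRCm38.p6, minus strand: chr5:145584731-145584980 for Cyp3a41b, chr5:145469724-145469973 for Cyp3a16 and chr5:145879855-145880104 for Cyp3a11). Capitals mark the match to CAAAGTCCA, a motif bound by the hepatocyte factor HNF4. GENCODE places the start of Cyp3a11 further upstream, inside its window, and the marked match lies just past that start.
Cyp3a41b: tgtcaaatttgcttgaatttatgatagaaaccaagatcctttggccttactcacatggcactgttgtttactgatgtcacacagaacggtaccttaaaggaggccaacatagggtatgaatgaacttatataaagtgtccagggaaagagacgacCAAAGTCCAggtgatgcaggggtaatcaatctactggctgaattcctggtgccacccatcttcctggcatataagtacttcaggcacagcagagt
Cyp3a16: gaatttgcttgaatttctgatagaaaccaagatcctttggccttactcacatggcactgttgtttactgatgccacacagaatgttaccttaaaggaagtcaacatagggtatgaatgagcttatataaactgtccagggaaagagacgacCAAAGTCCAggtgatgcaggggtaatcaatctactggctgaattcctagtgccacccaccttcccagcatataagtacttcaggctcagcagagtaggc
Cyp3a11: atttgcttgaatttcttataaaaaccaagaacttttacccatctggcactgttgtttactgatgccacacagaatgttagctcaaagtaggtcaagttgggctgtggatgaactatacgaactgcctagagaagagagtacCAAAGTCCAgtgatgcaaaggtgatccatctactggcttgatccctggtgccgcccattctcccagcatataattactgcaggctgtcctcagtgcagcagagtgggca
The promoter of Cyp3a41a was 99.6% identical to that of Cyp3a41b. Their transcribed sequences were not compared, and reads shared between such close genes would make each one's level uncertain. After alignment, Cyp3a41b matched Cyp3a16 at 91.7% and Cyp3a11 at 72.8%. The motif lay 95 bases before the RefSeq start in Cyp3a41b, 99 in Cyp3a16 and 109 in Cyp3a11. It occurred in 0.384% of the 32851 promoters (both strands searched), in 4 of 177 promoters of genes called lower, the 3 lower Cyp3a genes among them, and in 1 of 174 of genes called higher, that of Cyp3a11.

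A1bg, a plasma glycoprotein gene that is female-biased in mouse liver, stood at 10.9, 24.0 and 52.9 CPM on Low Protein, against 44.8, 97.6 and 764 CPM on Medium Protein. Medium Protein library 4 was the high value, and the change was -2.81 ± 0.52 (adjusted p = 0.000742) with it and -1.63 (0.0429) without it. A1bg did not pass in the fit of the 12 libraries (0.0725) or of the 18 (0.0805). Of 43 tested female-biased liver genes, the 3 Cyp3a genes and A1bg were called lower (1.02% of all genes were) and none higher. Of the 43, 33 lay below 0, beside 9098 of 19362 over all genes, and the list's median was -0.43, beside 0.01. Sult1e1, which inactivates oestrogen and is also in this list, stood at 0.0978 to 0.948 CPM on Low Protein and 0.873 to 5.99 CPM on Medium Protein, and its -2.91 ± 0.86 did not pass (adjusted p = 0.0544). Of 32 tested male-biased genes 3 were called higher (Elovl3, Cyp2d9 and C8a) and 3 lower (Mup2, Ugt2b1 and Lrtm1), against 0.924% and 1.02% of all genes, with a median of 0.03 (-0.03 without Low Protein library 1). Cyp2d9, a male-biased P450, stood at 15.0 to 56.3 CPM on Low Protein and 10.8 to 25 CPM on Medium Protein (1.02 ± 0.24, 0.0116; 0.0634 without Low Protein library 3 and 0.0518 without Medium Protein library 5).

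Mup genes encode major urinary proteins, which carry pheromones and are strongly male-biased. Of 21 tested, 3 were called lower on Low Protein and 0 higher, with wide spread, against 1.02% and 0.924% of all genes. Of the 21, 20 lay below 0, beside 9098 of 19362 over all genes, and Mup20 did not (0.08, adjusted p = 0.96). Mup17 stood at 2.31 to 11.7 CPM on Low Protein and 4.95 to 129 CPM on Medium Protein, Mup15 at 2.52 to 17.5 and 6.64 to 159 CPM, and Mup2 at 1.62 to 2.77 and 1.38 to 18.5 CPM. The high values of each came from Medium Protein libraries 4 and 6. The changes were -2.86 ± 0.75 (adjusted p = 0.0253), -2.97 ± 0.78 (0.0263) and -1.99 ± 0.55 (0.0401). Each call was lost without Medium Protein library 4 (adjusted p = 0.147, 0.109 and 0.159) and with limma-voom (0.272, 0.178 and 0.479). In all, the calls of Mup17 and Mup15 were each lost without any 1 of 6 libraries, and that of Mup2 without any 1 of 9. Copies of Mup genes are near-identical, so single values are less certain and the counts above are not of independent genes. Sult2a7 (-1.56 ± 0.43, 0.0377), a sulfotransferase with close copies, and Lrtm1 (-1.30 ± 0.37, 0.0452) were among the 15 lowest fold changes too, and their calls were lost without any 1 of 6 and of 8 libraries, at an adjusted p of up to 0.227 and 0.136.

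**Figure D2:**
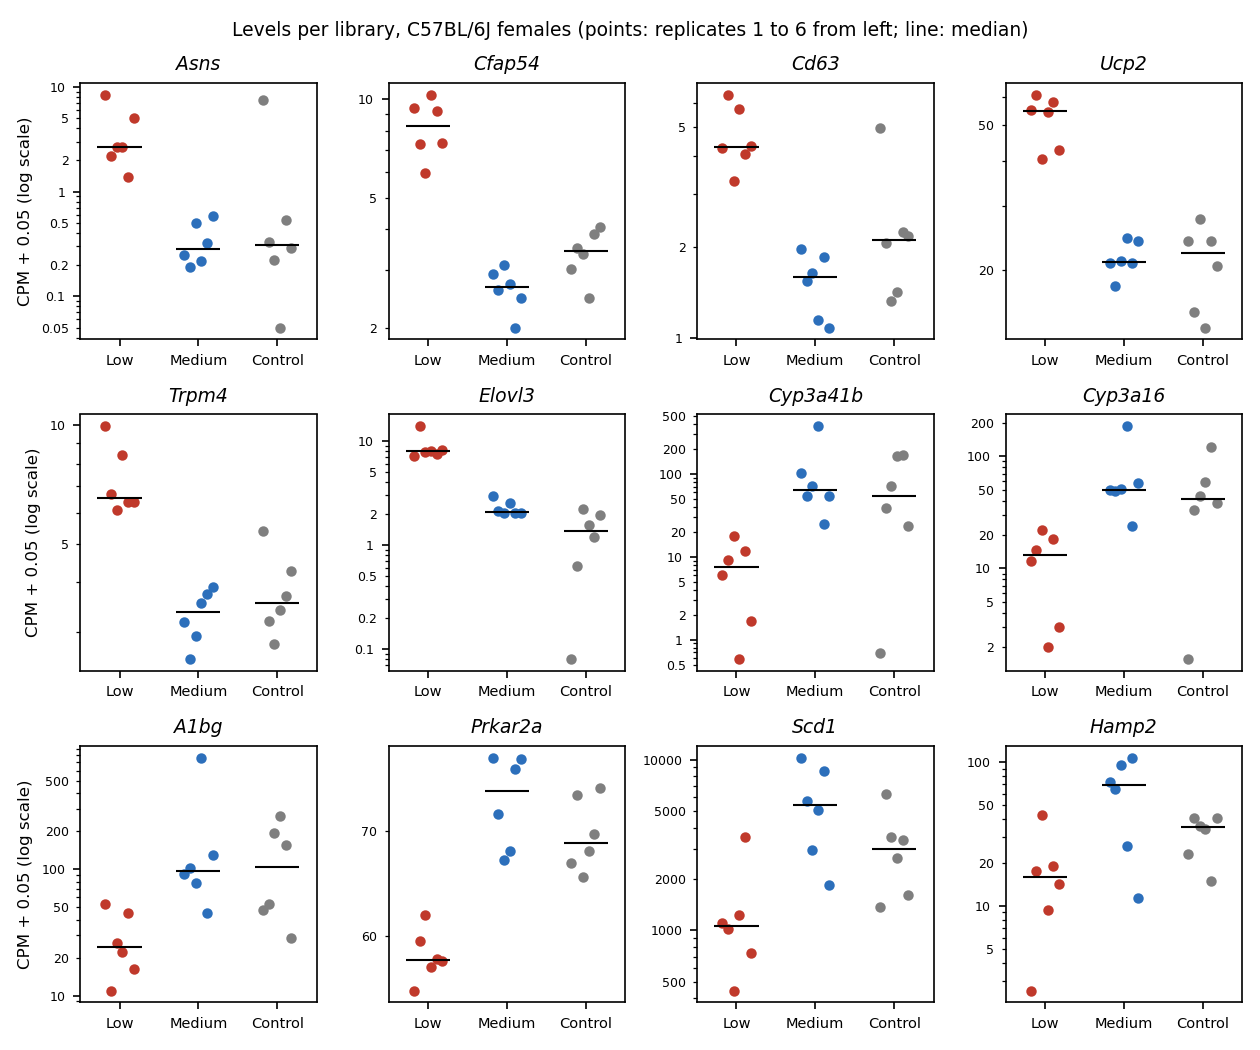
Each panel gives the CPM of 1 gene (plus 0.05, on a log axis) in the 6 Low Protein, 6 Medium Protein and 6 Control libraries of C57BL/6J females, with replicates 1 to 6 from left to right and a line at the median. Low and Medium Protein points are apart for Asns, Cfap54, Cd63, Ucp2, Trpm4, Elovl3, Cyp3a41b, Cyp3a16 and Prkar2a and overlap for A1bg, Scd1 and Hamp2; Control library 1 lies away from its group for Asns, Elovl3 and the Cyp3a genes.

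Called genes of fat synthesis went in both directions. Scd1 (chr19:44394455-44407879), which makes monounsaturated fatty acids, stood at 441, 1059 and 3498 CPM on Low Protein, against 1838, 5412 and 10274 CPM on Medium Protein. The groups overlapped through Low Protein library 5 and Medium Protein libraries 3 and 6 (-2.11 ± 0.49, adjusted p = 0.00941), and in a fit of the 12 libraries alone Scd1 did not pass (0.0725). Dgat2, the last enzyme of triglyceride synthesis, fell by 0.44 ± 0.11 on the log2 scale (0.0196), a call lost without Low Protein library 1 or 4 or Medium Protein library 4 or 5 (adjusted p up to 0.107). Elovl3 (chr19:46131897-46135694), which lengthens very long chain fatty acids, rose instead, to 7.14, 7.87 and 13.8 CPM on Low Protein, against 1.98, 2.03 and 2.90 CPM on Medium Protein. Its groups did not overlap (1.96 ± 0.43, 0.00489), although with limma-voom it did not pass (0.0932). These 3 (Elovl3 higher, Scd1 and Dgat2 lower) were the calls among 32 genes of fatty acid and triglyceride synthesis. Over all genes 0.924% were called higher and 1.02% lower. The list's median was -0.04 (0.02 without Low Protein library 1).

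Cholesterol synthesis genes leaned lower as a list. Of 25 tested, 23 lay below 0, beside 9098 of 19362 over all genes. The median log2 fold change was -0.45, beside 0.01, and 2 were called, both lower (1.02% of all genes were). Tm7sf2, a sterol reductase, stood at 17.6 to 26.8 CPM on Low Protein and 27.8 to 50.7 CPM on Medium Protein, with no overlap (-0.84 ± 0.18, adjusted p = 0.00413).

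Among 40 genes of fatty acid oxidation and other targets of the fatty acid sensor PPARA, 4 were called, each higher on Low Protein (0.924% of all genes were). The list's median was 0.08 (0.17 without Low Protein library 1), beside 0.01 over all genes. Ucp2 (chr7:100493337-100502020), a carrier of the inner mitochondrial membrane, rose to 51.8 ± 8.37 CPM on Low Protein, against 21.5 ± 2.38 CPM on Medium Protein (SD, n = 6 each). Its lowest Low Protein library (40.3 CPM) lay above its highest Medium Protein library (24.4 CPM), and the change was 1.27 ± 0.18 (adjusted p = 5.16e-06). Cyp4a32 and Cyp4a31, fatty acid hydroxylases with close copies, rose by 1.2 ± 0.22 (0.000554) and 1.04 ± 0.29 (0.042), and Eci2, an isomerase of fatty acid oxidation, by 0.36 ± 0.07 (0.0029). Cyp4a31 was not called without any 1 of 9 libraries (adjusted p up to 0.118). Cpt1a, the gate of mitochondrial fatty acid entry, stood at 939 to 1250 CPM on Low Protein and 676 to 1011 CPM on Medium Protein and was not called (0.27 ± 0.09, 0.132).

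Bile acid and conjugation genes changed singly. Slc10a2, the bile acid uptake transporter best known from ileum and bile duct cells, fell to 0.847 to 4.37 CPM on Low Protein, against 3.81 to 6.89 CPM on Medium Protein (-1.34 ± 0.31, adjusted p = 0.0102; 0.0524 with limma-voom). Amacr, a racemase of bile acid side chain oxidation, was the 1 call among 26 genes of bile acid synthesis and transport (1.94% of all genes were called). It stood at 88.2 to 94.5 CPM on Low Protein and 67.0 to 85.4 CPM on Medium Protein (0.27 ± 0.07, 0.0149). Its adjusted p was 0.0502 without Medium Protein library 1 and 0.0727 without library 5. Cyp7a1, which sets the pace of bile acid production, was at 210 to 533 CPM on Low Protein and 54.1 to 668 CPM on Medium Protein, and did not pass (0.22 ± 0.44, 0.886). Of the glucuronosyltransferases, which share exons at 1 locus on chromosome 1, Ugt1a5 was lower (37.7 to 83.1 CPM on Low Protein and 97.7 to 182 CPM on Medium Protein, -1.29 ± 0.27, 0.00313). Ugt1a9 was higher in 5 of 6 Low Protein libraries than the Medium Protein median (35.5 to 214 and 34.5 to 92.1 CPM, 1.09 ± 0.25, 0.00995), and library 1 was the exception. In all, 2 of 35 xenobiotic metabolism genes were called higher (Cyp3a11 and Ugt1a9) and 4 lower (the 3 Cyp3a genes above and Ugt2b1), against 0.924% and 1.02% of all genes. The call of Ugt2b1 was lost without any 1 of 8 libraries (adjusted p up to 0.0858).

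In the growth hormone and IGF1 axis, 1 of 21 genes was called higher and 2 lower, against 0.924% and 1.02% of all genes. Igfals, the subunit that keeps IGF1 in the circulation, stood at 29.3, 33.9 and 45.6 CPM on Low Protein, against 44.6, 58.0 and 84.7 CPM on Medium Protein (-0.73 ± 0.16, adjusted p = 0.00614). Igfbp2, an IGF binding protein, stood at 294, 612 and 681 CPM on Low Protein, against 239, 305 and 415 CPM on Medium Protein (0.80 ± 0.22, 0.032), and Low Protein library 1 was the lowest of its group. Igfbp4 fell by 0.26 ± 0.08 (0.0452). Igf1 itself stood at 265 to 477 CPM on Low Protein and 354 to 465 CPM on Medium Protein (-0.30 ± 0.11, 0.127). Without library 1, Igf1 passed (-0.41, 0.0253). The calls of Igfbp2 and Igfbp4 were lost without any 1 of 8 and of 9 libraries (adjusted p up to 0.099 and 0.134).

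Hamp2, a hepcidin gene, stood at 2.52, 15.9 and 43.0 CPM on Low Protein, against 11.3, 69.1 and 107 CPM on Medium Protein. Each Low Protein library lay below the Medium Protein median, Medium Protein libraries 4 and 6 fell within the Low Protein range, and the change was -1.84 ± 0.40 (adjusted p = 0.00489; 0.157 in a fit of the 12 libraries alone). It was the 1 call among 19 genes of iron and metal handling (1.94% of all genes were called). Of 26 cell cycle genes, Tk1 and Rrm2, which supply nucleotides for DNA synthesis, were called lower (-1.01 ± 0.25, 0.0137, and -0.79 ± 0.21, 0.0273) and Mcm2, of the replicative helicase, higher (0.77 ± 0.20, 0.0296). Over all genes 1.02% were called lower and 0.924% higher, and the list's median was 0.30, beside 0.01. The call of Tk1 was lost without Medium Protein library 5 (0.0724), and those of Rrm2 and Mcm2 without any 1 of 5 and of 6 libraries (adjusted p up to 0.0841 and 0.11).

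The smallest p-values belonged mainly to genes outside the lists (these 10 were named after their values were seen; Ucp2 is given above and Ttn below). Trpm4, a calcium-activated cation channel, stood at 6.06, 6.5 and 9.90 CPM on Low Protein, against 2.51, 3.31 and 3.84 CPM on Medium Protein (1.16 ± 0.16, adjusted p = 5.16e-06). Cfap54, a gene of cilia and flagella, stood at 5.90, 8.22 and 10.3 CPM on Low Protein, against 1.95, 2.62 and 3.07 CPM on Medium Protein (1.66 ± 0.23, 5.16e-06). Cd63, a tetraspanin of late endosomes, stood at 3.27, 4.25 and 6.35 CPM on Low Protein, against 1.03, 1.54 and 1.92 CPM on Medium Protein (1.63 ± 0.23, 5.16e-06). In each of these 3 genes the lowest Low Protein library was above the highest Medium Protein library. Small changes with little spread were also among them. The splicing factor gene Rbm17 rose by 0.52 ± 0.07 (6.34e-06), the protein kinase A subunit gene Prkar2a fell by 0.33 ± 0.05 (3.59e-05) and the translation initiation factor gene Eif4b fell by 0.40 ± 0.06 (7.16e-05). Prkar2a stood at 55.3 to 61.8 CPM on Low Protein and 67.0 to 77.9 CPM on Medium Protein. Gid4, the substrate receptor of a ubiquitin ligase known in yeast for degrading gluconeogenic enzymes, fell by 0.43 ± 0.07 (0.000118), and Tmem136 rose by 1.39 ± 0.22 (9.14e-05). The groups of these 5 genes did not overlap, and each call held with any 1 library left out. Against a fold of 1.2, Prkar2a (0.796), Eif4b (0.359) and Gid4 (0.275) did not pass.

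Further high fold changes were those of Mtnr1a, a melatonin receptor (1.52 ± 0.37, adjusted p = 0.0147), Gal3st1, which makes sulfatide (1.46 ± 0.35, 0.0137), Zdhhc2, a palmitoyltransferase (1.43 ± 0.31, 0.00413), and Cgref1 (1.37 ± 0.32, 0.0102). The first 3 were low genes whose groups did not overlap: Mtnr1a at 1.43 to 3.05 and 0.193 to 1.09 CPM, Gal3st1 at 2.54 to 5.03 and 0.745 to 1.87 CPM, and Zdhhc2 at 1.01 to 3.42 and 0.443 to 0.852 CPM, on Low and Medium Protein in that order. Cgref1 stood at 4.50 to 17.0 CPM on Low Protein and 1.84 to 6.12 CPM on Medium Protein and was not called without Low Protein library 6 (1.13, 0.0628). Mtnr1a was not called without Low Protein library 6 (0.0591) or Medium Protein library 4 (0.0565). Tiam2, an activator of the small GTPase RAC, closed the 15 lowest, at 1.59 to 3.36 CPM on Low Protein and 3.30 to 8.11 CPM on Medium Protein (-1.20 ± 0.21, 0.000371).

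Some of the highest fold changes came from Low Protein library 1. Orm2, an acute phase protein gene, was at 818 CPM in that library, against 2.96 to 7.34 CPM in the other 5 Low Protein and 2.95 to 7.91 CPM in the Medium Protein libraries. Its fold change was 4.87 ± 0.95 (adjusted p = 0.00145) with library 1 and -0.03 (0.993) without it. Cxcl13, a chemokine that attracts B cells, was at 95.6 CPM there, against 1.01 to 6.51 CPM in the other Low Protein and 0.852 to 9.11 CPM in the Medium Protein libraries, and its 2.84 ± 0.72 (0.0193) became -0.13 (0.96). Ttn, titin, was at 63.1 CPM there, against 4.83 to 10.5 CPM in the other Low Protein and 3.38 to 5.56 CPM in the Medium Protein libraries (1.98 ± 0.32, 8.15e-05), and passed without it at a smaller 0.67 (0.0179). Ttn did not pass without libraries 1 and 6 (0.42, 0.255), in the fit of the 12 libraries (0.155) or in that of the 18 (0.12). Isyna1 of inositol synthesis, the citrate transporter gene Slc13a5 and Ly6d were at 19.3, 19.0 and 19.7 CPM there and did not pass without it (0.35, 0.607, 1.04, 0.165, and 1.08, 0.0929 as fold change and adjusted p in turn). C8a of complement was at 436 CPM there, against 49.4 to 148 CPM in the Medium Protein libraries, and its 1.19 ± 0.32 (0.0339) became 0.60 (0.363). The call of C8a was also lost without any 1 of Medium Protein libraries 1 to 5 (adjusted p up to 0.0917). The raised macrophage and neutrophil marker sums of Low Protein library 1 are given above, and their part in these results was not tested.

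**Figure D3:**
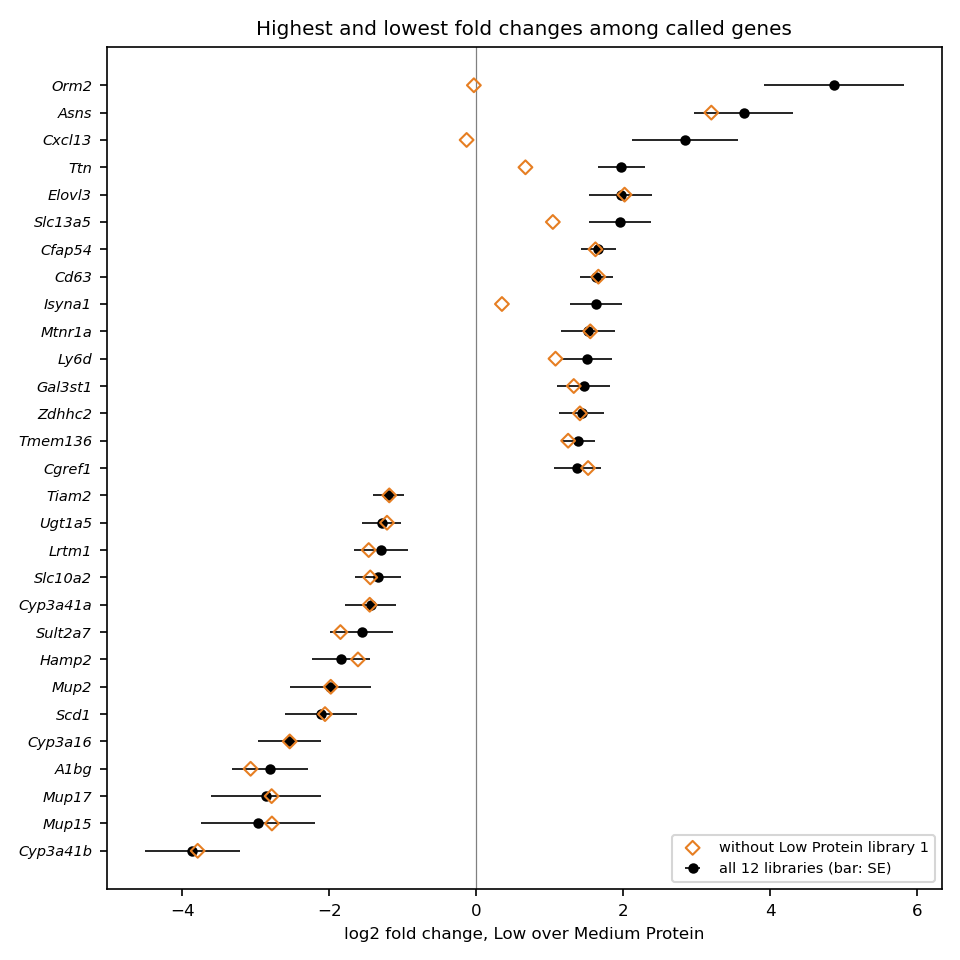
The log2 fold change of Low over Medium Protein is shown for called genes with the highest and the lowest fold changes, in black from all 12 libraries with its standard error and as an open orange diamond without Low Protein library 1. Orm2 and Cxcl13 drop to -0.03 and -0.13 and Ttn, Isyna1 and Slc13a5 shrink, while Asns stays at 3.20 and each plotted gene with a negative fold change keeps its sign.

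The other lists held few or no calls. Over all genes 1.94% were called, so counts this low in lists this short say little about them. None of the lists interferon response (41 genes), circadian clock (21), heat shock (20), NRF2 targets (30), gluconeogenesis (16), glycogen (16), respiratory chain (76), cytosolic ribosomal proteins (77), immediate early and glucocorticoid response (24) and apolipoproteins (22) held a call, with medians from -0.26 (circadian clock) to 0.22 (immediate early). Orm2 and Hamp2 were the calls among 33 acute phase genes, and without Low Protein library 1 the list's median was -0.14 in place of 0.17. Atf6, a sensor of endoplasmic reticulum stress, was the 1 call among 23 genes of that list (-0.28 ± 0.08, adjusted p = 0.0414; lost without any 1 of 7 libraries, up to 0.135). None of the 12 cell type lists held a call. Their medians from at least 4 tested genes ran from -0.17 (endothelial) to 0.88 (neutrophil, 4 genes), and without library 1 from -0.17 (B and plasma cell, 0.29 with it) to 0.34 (adipocyte). Without it the neutrophil median was -0.10 and the macrophage median -0.09 in place of 0.22. Lep of adipocytes and Ctrb1 and Try4 of pancreas were at 0 in the 12 libraries. Hepatocyte markers (12 genes) had a median of -0.02.

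**Figure D4:**
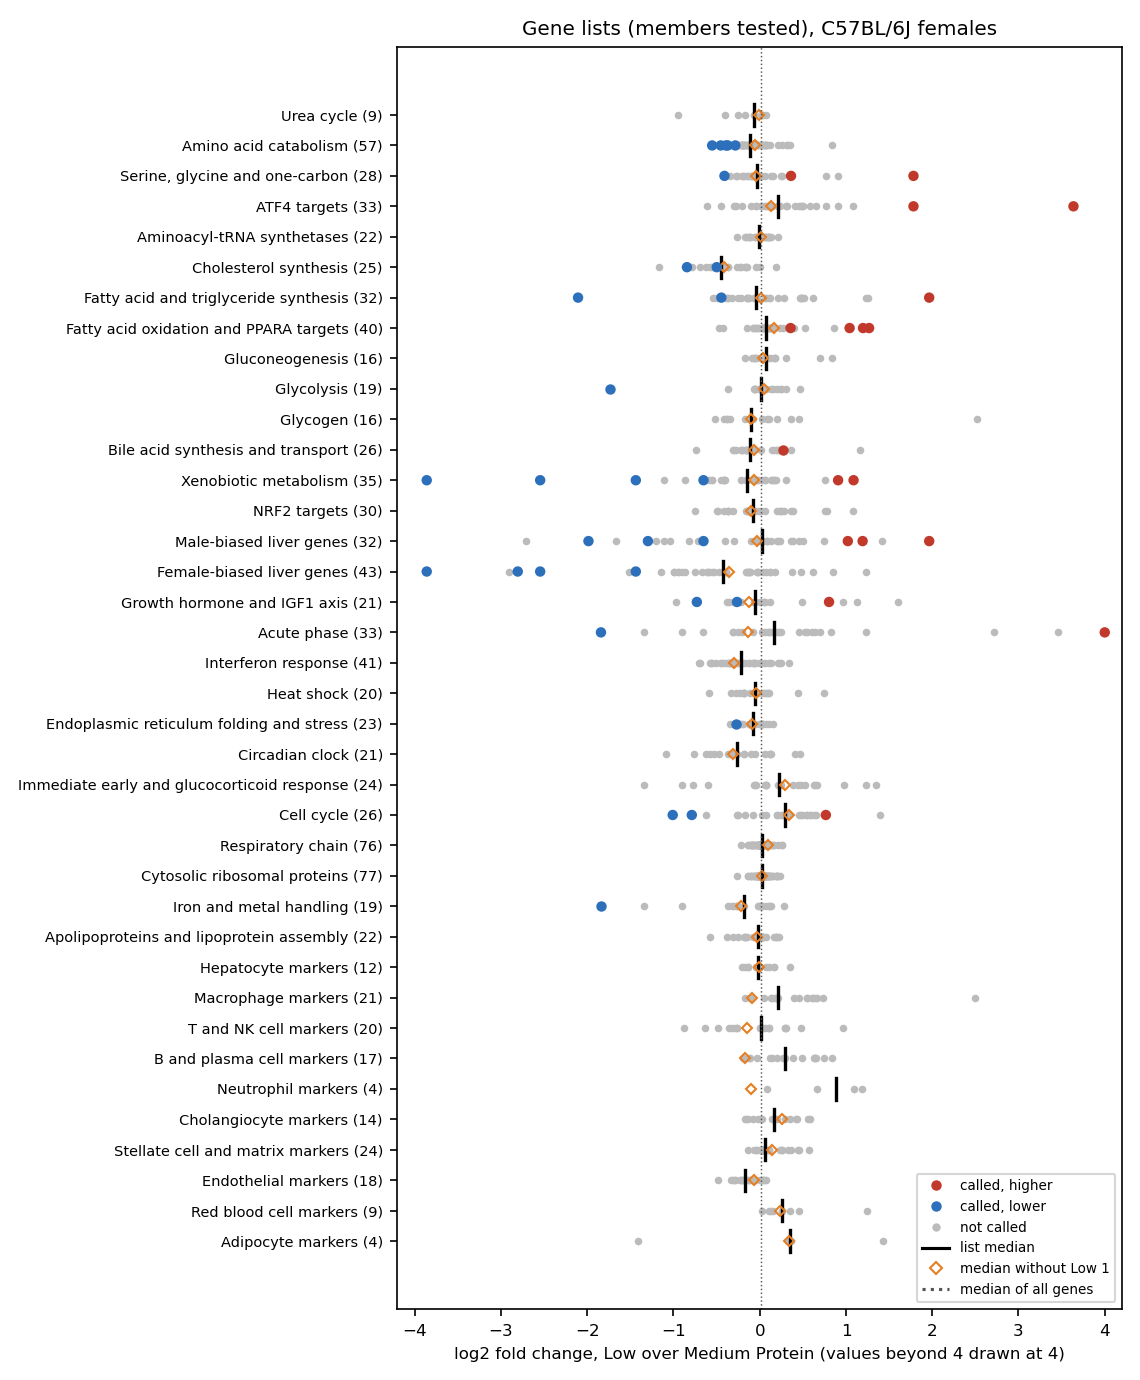
Each row is a gene list with its number of tested genes, and points are the log2 fold changes of Low over Medium Protein of its members, red and blue where called (values beyond 4 are drawn at 4). Black bars mark the list median and orange diamonds the median without Low Protein library 1; the cholesterol and female-biased lists have medians of -0.45 and -0.43, and the neutrophil, macrophage and acute phase medians move to below 0 without library 1.

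Control livers placed the Low and Medium Protein levels on a longer scale. Low Protein against Control called 629 genes (3.25% of those tested) and Medium Protein against Control called 0 (0%), with 1465 genes at an unadjusted p below 0.05, 10 called by DESeq2 and 0 by limma-voom. These comparisons share animals with that of Low against Medium Protein, so the values are only set side by side. Ucp2 averaged 51.8 ± 8.37, 21.5 ± 2.38 and 20.8 ± 5.42 CPM on Low Protein, Medium Protein and Control (SD, n = 6 each), so Low Protein stood apart from both (1.31 against Control, adjusted p = 5.8e-06). Cfap54 averaged 8.19 ± 1.64, 2.59 ± 0.386 and 3.33 ± 0.588 CPM in the same order (1.30, 0.000291), and Elovl3 8.72 ± 2.52, 2.23 ± 0.375 and 1.22 ± 0.806 CPM (2.83, 7.5e-05). Scd1 averaged 1335 ± 1096, 5750 ± 3228 and 3125 ± 1775 CPM, and Hamp2 17.6 ± 13.8, 63.0 ± 37.8 and 31.5 ± 10.4 CPM. In both genes the Medium Protein mean was the highest of the diets. Neither Low Protein (adjusted p = 0.148 and 0.256) nor Medium Protein (0.688 and 0.516) passed against Control for them. Sult1e1 averaged 0.304 ± 0.325, 2.29 ± 1.89 and 7.47 ± 5.68 CPM, and Medium Protein did not pass against Control (-1.70, 0.517). Control library 1 stood away from its group for several of these genes (singled out after its values were seen). It had 7.43 CPM of Asns, against 0 to 0.490 CPM in the other 5, and 0.646 CPM of Cyp3a41b, against 23.5 to 170 CPM. Asns against Control was 1.36 on Low Protein (0.183). Without Control library 4 the count of Low Protein against Control was 322.

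C57BL/6J males of the same experiment gave 1264 calls for Low against Medium Protein (6.53% of those tested, 2.42% higher and 4.11% lower). They share no animals with the females. Both sexes called 89 genes, 23.7% of the female and 7.04% of the male calls, and 85 of them went the same way (39 higher, 46 lower). Among these were Ucp2 (1.27 in females and 0.81 in males), Cd63 (1.63 and 0.89), Aldh1l2 (1.78 and 2.89), Mat2a (0.36 and 0.32), Shmt1 (-0.41 and -0.39), Igfals (-0.73 and -0.53), Hamp2 (-1.84 and -2.44) and Ugt1a9 (1.09 and 1.79). Genes outside the lists with calls in both sexes, chosen after their values were seen, included Enc1, an actin-binding protein gene (1.27 and 1.5), Dynll1 of the dynein motor (1.05 and 1.19), the protease gene Corin (1.26 and 2.49) and App, the amyloid precursor gene (0.55 and 1.18). Enc1 stood at 24.8 to 55.2 CPM in Low Protein and 12.3 to 20.3 CPM in Medium Protein females. Dynll1 stood at 9.63 to 11.5 CPM in Low Protein and 3.41 to 7.44 CPM in Medium Protein females, and neither gene's groups overlapped. Bcap29, Serping1, Igdcc4 and Prdm10, the 4 genes called in opposite directions, were likewise chosen for that: Serping1, the inhibitor of complement C1, was 0.42 ± 0.10 in females (adjusted p = 0.0148) and -0.33 ± 0.10 in males (0.0378).

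The difference between the sexes was tested directly. It passed for 259 genes (1.34%), of which 57 were called in females, 178 in males, 5 in both and 29 in neither, and for 217 of them the fold changes had opposite signs. The female minus male difference was positive for 169 of the 259. With library totals 438 genes passed and 57 of these were positive, and the median difference over all genes was -0.14 in place of 0.01 (the male median was 0.19). A fit of the compared groups alone gave 23. Rbm17 rose in females alone among the 2 sexes, at 27.5 ± 3.88 and 19.2 ± 1.96 CPM on Low and Medium Protein in females and 22.1 ± 1.53 and 23.8 ± 2.67 CPM in males (difference of log2 fold changes 0.63, adjusted p = 0.000399). Cfap54 (1.66 in females, 0.14 in males) and Trpm6, a magnesium channel gene (1.18 and -0.24, chosen after its values were seen), also differed (0.00703 and 0.0233). Other large differences came from genes that changed in males: Sulf2, a heparan sulfate sulfatase, was at 21.5 ± 3.49 and 21.6 ± 4.52 CPM on Low and Medium Protein in females, against 3.01 ± 1.43 and 13.2 ± 3.75 CPM in males (difference 2.11, 1.64e-06). Acpp, an acid phosphatase, was at 7.35 ± 5.78 and 9.75 ± 2.26 CPM in females and 0.817 ± 0.543 and 10.8 ± 5.19 CPM in males (3.32, 1.64e-06). For the Cyp3a genes the male values were 1.18 ± 4.81 (Cyp3a41b, adjusted p = 0.938) and 1.54 ± 1.99 (Cyp3a16, 0.755). The difference between the sexes did not pass (0.885 and 0.352), and with errors this wide it could hardly have done so.

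Over all genes 1.94% were called in females and 6.53% in males (2.42% higher, 4.11% lower), and 4 lists are set beside these shares. Of the 57 amino acid catabolism genes, 5 were called lower in females and 40 lower and 1 higher in males, with medians of -0.11 and -0.44, and the difference itself passed for 5. Among 77 cytosolic ribosomal protein genes 0 were called in females and 29 higher in males (medians 0.03 and 0.19, difference passed for 1). Among 41 interferon response genes 0 were called in females and 19 lower in males (-0.22 and -0.61, difference passed for 3). The 9 urea cycle genes had 0 calls in females and 5 lower in males (-0.07 and -0.43, difference passed for 0). For Fgf21 the fold change was 0.77 in females and 1.95 in males (0.00101), and the difference did not pass (0.335). Pdk4 gave 0.86 in females (0.42) and 2.78 in males (8.94e-05, difference 0.145), and Lepr 1.12 (0.148) and 2.30 (0.000191, difference 0.354).

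**Figure D5:**
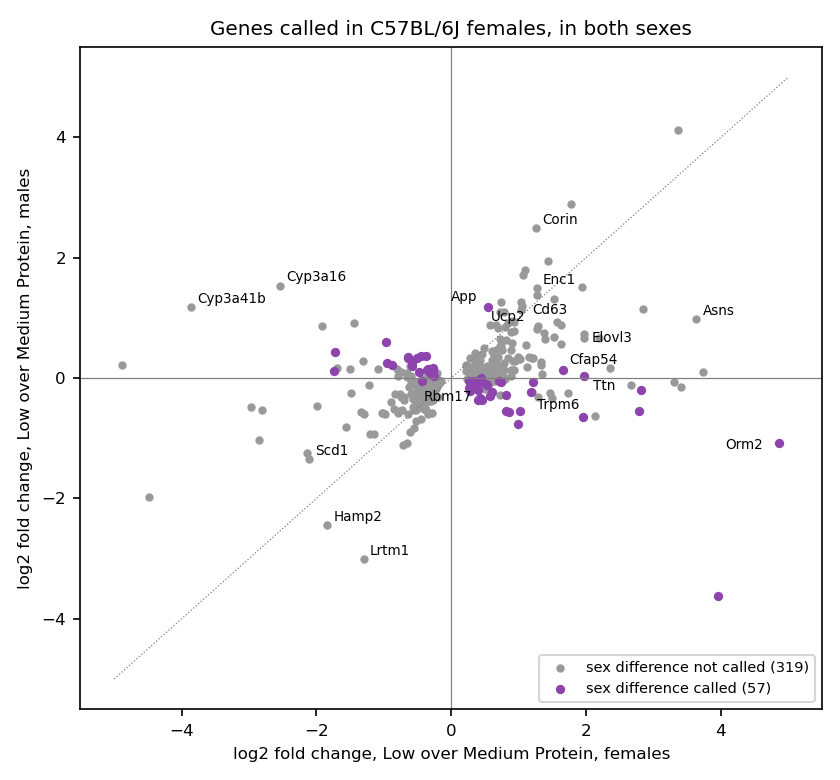
Each point is 1 of the 376 genes called in C57BL/6J females, with the log2 fold change of Low over Medium Protein in females on the x axis and in males on the y axis; purple points are the 57 whose difference between the sexes was called, and the dotted line marks equal values. Corin, Enc1 and Ucp2 lie in the upper right, Scd1 and Hamp2 in the lower left, and Rbm17, Trpm6 and Cfap54 near 0 on the male axis.

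DBA/2J females, another inbred strain, gave 8 calls for Low against Medium Protein (0.0413% of those tested), 1 of them shared with C57BL/6J females. The difference between the strains passed for 85 genes (0.439%), of which 56 were called in C57BL/6J and 4 in DBA/2J females, and 79 had fold changes of opposite sign. The difference was positive for 39 of the 85, and for 41 of 60 with library totals; a fit of the compared groups alone gave 52. Prkar2a was at 58.3 ± 2.20 and 73.2 ± 4.96 CPM on Low and Medium Protein in C57BL/6J, against 81.8 ± 5.05 and 73.0 ± 2.34 CPM in DBA/2J (difference of log2 fold changes -0.49, adjusted p = 4.29e-05). Cfap54 was at 8.19 ± 1.64 and 2.59 ± 0.386 CPM in C57BL/6J and 1.36 ± 0.356 and 1.86 ± 0.448 CPM in DBA/2J (2.11, 0.000259). Pomt2, an enzyme of protein O-mannosylation, was at 16.8 ± 1.18 and 21.0 ± 0.760 CPM in C57BL/6J and 22.8 ± 2.33 and 20.3 ± 0.988 CPM in DBA/2J (-0.48, 0.000937). Slc10a2 was at 2.26 ± 1.25 and 5.76 ± 1.35 CPM in C57BL/6J, against 8.35 ± 2.10 and 4.33 ± 1.06 CPM in DBA/2J (-2.28, 0.00345), so Low Protein levels lay below Medium Protein levels in one strain and above them in the other. Cyp4f14, a fatty acid hydroxylase, gave 34.0 ± 9.01 and 58.8 ± 8.00 CPM in C57BL/6J and 88.6 ± 6.42 and 76.6 ± 16.2 CPM in DBA/2J (-0.999, 0.00245). Mup17 gave 5.85 ± 3.27 and 42.4 ± 51.5 CPM in C57BL/6J and 60.1 ± 49.5 and 8.95 ± 5.39 CPM in DBA/2J (-5.60, 0.00295). Trpm4, Cd63 and Ucp2 had fold changes of -0.03, 0.03 and -0.01 in DBA/2J, and their differences passed as well (0.00399, 0.00481 and 0.00481).

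In the authors' deposited table, whose fold changes run the same way, 423 genes had an adjusted p below 0.05 for this comparison, 206 higher and 217 lower on Low Protein. Of the 376 calls here 335 were among them, each in the same direction. For Asns the authors' deposited table gave 3.5 (adjusted p = 0.0139), and for Elovl3 1.93 (0.0844).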

How the data were processed

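RNA-seq of mouse liver was analysed from the deposited table of RSEM expected counts (51912 genes, 72 libraries), made by the authors from stranded polyA libraries run over 2 lanes, per the labels' protocols. R 3.4.3, RSEM, edgeR and limma are named in the submitters' processing notes; for the aligner, genome build and annotation behind the counts, a statement was not given in the sources used. The authors' deposited table of comparisons gives log2 fold changes, adjusted p-values and a test score (an F statistic, not used). A symbol was matched to 51633 gene IDs, and positions are GENCODE M21 on GRCm38. Promoters are RefSeq's, on GRCm38.p6.

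Expected counts were rounded (11.6% of values were not whole). All 72 libraries were fitted with 12 group means (edgeR 4.0.16, TMM factors, filterByExpr, quasi-likelihood test, Benjamini-Hochberg adjusted over 19362 genes), and differences between sexes and strains were contrasts of the same fit. The common biological coefficient of variation was 0.207. The test was checked on simulated data. Depth is 27.8 to 35.5 M counts in the 12 libraries compared and 26.9 to 38.4 M over all 72. Replicate numbers follow accession order and only name libraries. Alternatives were other scalings (RLE, totals, TMM without the 10 most abundant genes), other filters, the compared groups only, the 18 C57BL/6J female libraries, DESeq2 1.42.0, limma-voom (limma 3.58.1, R 4.3.3) with and without quality weights, a test against a fold of 1.2, and each library left out. Leaving out Low Protein libraries 1 and 6 together was chosen after seeing the data.

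Named genes were the 15 highest and 15 lowest called fold changes among genes whose log2 CPM averaged 0 or more, up to 4 called and 2 other members per list (40 lists), 6 per difference between sexes or strains, and a fixed set. The members and lists were chosen with earlier results of these data known. The 10 smallest p-values, further called list members and genes shared with or opposed to males were chosen after their values were seen. Some genes that this rule names are counted but not reported here. Near-identical copies (Mup, Cyp3a41, Ugt1a, Sult2a, Cyp4a) are less certain.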

Additional observations from a re-analysis of the deposited data

Results flagged for a closer look

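Within each diet, single libraries that stood far from the other 5 were looked for with Dixon's test on log2(CPM + 1). Of 134 gene and diet groups examined, 14 met it. Chance gives about 1 in 20 for genes not picked by their values. Genes such as Orm2 and Cxcl13 were named for their fold changes in these same libraries, so that rate is not a fair yardstick here. Low Protein library 1 was the high one for Orm2 (818 CPM), Cxcl13 (95.6 CPM), Ttn (63.1 CPM), Isyna1 (19.3 CPM) and C8a (436 CPM), and the low one for Ugt1a9 (35.5 CPM) and Igfbp2 (294 CPM). Low Protein library 2 was high for Elovl3 (13.8 CPM), library 3 for Cyp4f14 (51.7 CPM) and Rrm2 (2.72 CPM), and library 4 was low for Cyp3a41a (59.0 CPM). On Medium Protein, library 4 was high for A1bg (764 CPM), library 3 for Cxcl13 (9.11 CPM) and library 6 for C8a (148 CPM).

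The response to Low against Medium Protein differed between C57BL/6J females and males by edgeR's quasi-likelihood test of the difference of log2 fold changes (females minus males). The genes with the smallest p-values were Sulf2 (2.11) and Acpp (3.32), both with an adjusted p of 1.64e-06, Rbm17 (0.63), Hsd17b10 (1.02) and Micu2 (0.83), each with 0.000399, and Smpd3 (3.02, 0.000978). Hsd17b10, a mitochondrial dehydrogenase, was at 110 ± 20 and 90.6 ± 18.3 CPM on Low and Medium Protein in females, against 84.7 ± 13.5 and 142 ± 24.1 CPM in males (SD, n = 6 each). Micu2, a regulator of mitochondrial calcium uptake, was at 16.1 ± 1.16 and 14.4 ± 0.605 CPM in females, against 12.5 ± 1.95 and 19.9 ± 2.25 CPM in males. Smpd3, a sphingomyelinase, was at 4.62 ± 3.42 and 2.69 ± 0.917 CPM in females, against 1.18 ± 0.612 and 5.54 ± 2.67 CPM in males.

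Between C57BL/6J and DBA/2J females, the difference of log2 fold changes was -5.60 for Mup17 (adjusted p = 0.00295), -2.28 for Slc10a2 (0.00345), 2.11 for Cfap54 (0.000259), -0.49 for Prkar2a (4.29e-05), -0.48 for Pomt2 (0.000937) and -0.999 for Cyp4f14 (0.00245), in the same edgeR fit.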

How the results depend on the processing

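No paired analysis was possible because no animal code in the labels is shared between the diets of C57BL/6J females, and a code that recurs in the other sex or strain belongs to another animal. The count of genes called for Low against Medium Protein (376) was 213 with library totals, 221 with no filter, 101 from the compared groups only, 54 from the 18 C57BL/6J female libraries, 650 with limma-voom and quality weights, 54 against a fold of 1.2, 147 without Low Protein libraries 1 and 6, and 201 to 430 with 1 library left out. DESeq2 gave 546, limma-voom 389 and RLE factors 388. The count for the difference between the sexes (259) was 438 with library totals, 122 with no filter, 23 from the compared groups only, 412 with DESeq2, 38 against a fold of 1.2, 123 without Low Protein libraries 1 and 6, and 153 to 361 with 1 library left out. For the difference between the strains (85) the counts were 53 with no filter, 52 from the compared groups only, 180 with DESeq2, 230 with quality weights, 19 against a fold of 1.2, 45 without libraries 1 and 6, and 59 to 157 with 1 library left out. Low Protein against Control (629) gave 295 with library totals, 337 with no filter, 87 from the compared groups only, 190 from the 18 female libraries, 38 against a fold of 1.2, and 322 to 777 with 1 library left out; without Control library 1 it was 777. Medium Protein against Control gave 10 with DESeq2.

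Of 67 named called genes, 38 passed with each of the 12 libraries left out and 29 were lost without at least 1. Among the named genes, fold changes that turned sign were those of Orm2 (-0.033 to 5.12 with 1 library left out), Cxcl13 (-0.13 to 3.91) and, not called, Marco (-0.028 to 4.01), Csf3r (-0.021 to 0.81), Cyp7a1 (-0.000941 to 0.58), Sulf2 (-0.077 to 0.090; 0.020 with library totals, 0.0034 with limma-voom, 0.023 with quality weights, 0.085 without libraries 1 and 6) and Cela1 (-0.10 to 0.13; 0.058 with quality weights, 0.036 without libraries 1 and 6). Of all 376 calls 3 turned sign without Low Protein library 1, and the third was Acod1 (3.31, and -1.32 without it; singled out after its values were seen). The cause was not tested.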
